A study of Mus musculus with 18 samples.

Results

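Protein kinase C is a family of serine and threonine kinases, and its genes were followed here in the brains of mouse pups given lead. The genes reported are Prkca, Prkcb, Prkcd, Prkce, Prkch, Prkci, Prkcq and Prkcz, and the members were the probe sets annotated to exactly 1 of these symbols. The array listed these 8 genes with 20 probe sets, among 18194 genes with a probe set of a single symbol. The brightest probe set stood for each gene, and all 8 passed the filter that kept the upper 60% of genes by mean level, which left 10916 genes for testing.

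The arrays measured whole brain of postnatal day 8 pups on the C57BL/6J background. The genotypes were Mt-KO (-/-), heterozygous (+/-) and wild-type (+/+) for a metallothionein knockout that had been backcrossed to C57BL/6J for at least 7 generations, and all 3 came from a closing cross between siblings. Pups of each genotype received lead acetate at 50 mg/kg or saline, with 2 daily injections (4 h between them) on postnatal days 7 and 8. Brains were collected 6 h after the last one. RNA of 5 pups, described as male and female, was pooled for each combination, and each of the 6 pools was read on 1 array. No combination was replicated. The 3 genotypes therefore stood in as replicates of the lead comparison, and the p-values measure only what the fitted models left over among these 6 pools. Levels are deposited RMA values on a log2 scale.

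Conventional isoforms, such as alpha and beta, are switched on by calcium together with diacylglycerol, the lipid that phospholipase C releases at the membrane. A middle class (delta, epsilon, eta and theta) needs diacylglycerol but no calcium, and atypical isoforms (iota and zeta) need neither and are held in protein complexes. In the brain the family acts in transmitter release, synaptic plasticity and neuronal polarity, and lead ions are known to activate the calcium-dependent enzyme in place of calcium. The arrays measured transcripts, and neither the amount of protein nor kinase activity.

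The labelled genotypes and tissue were checked first. Mt1, a widely expressed metallothionein gene, had RMA values of 11.71, 12.87 and 13.30 in the lead pools of Mt-KO, heterozygous and wild-type pups, and 11.68, 12.45 and 13.17 in the saline pools, so its levels followed the number of intact alleles. Bright transcripts of excitatory neurons (Slc17a6, Neurod6), astrocytes (Slc1a2) and oligodendrocytes (Mbp) had RMA values of 12.60 or more in every pool. The wild-type saline array stood apart from the others. There the 3′ end of Gapdh read higher than the 5′ end by 1.19 (log2), against 0.54 to 0.82 on the other 5 arrays, and its values were the most widely spread (SD over the genes tested 1.25, against 1.12 to 1.23). The Mt-KO pools also differed in sex-linked transcripts, and the Y-linked Eif2s3y had RMA values of 11.16 in the lead pool and 6.50 in the saline pool. In the heterozygous and wild-type pools Eif2s3y lay between 9.45 and 10.45. Xist had values of 10.23 in the Mt-KO lead pool and 12.75 in the Mt-KO saline pool, against 11.91 to 12.20 in the heterozygous and wild-type pools. Within the Mt-KO pair, treatment and this difference cannot be told apart. In the heterozygous pair the pituitary transcript Gh had values of 11.48 in the lead pool and 9.32 in the saline pool. The part of these features in the results below was not tested, except where a value without the array is given.

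Promoter sequence was examined because lead is a metal and because metallothionein genes are themselves switched on through metal response elements, short sites bound by the zinc-sensing factor MTF-1. RefSeq windows of 300 bases (250 before and 50 after a transcription start, build GRCm38.p6) matched 6 of the 8 genes by gene identifier, in 9 windows: 1 each for Prkca, Prkcb, Prkci and Prkcq, 2 for Prkcd and 3 for Prkcz. The core of the element was searched on both strands in an A form (TGCACNC) and a G form (TGCGCNC). The A form was present in 5 of the 9 windows, against 12.6% of all 32851 windows searched, and the G form in 2 of the 9, against 15.4%. Either form was present in 5 of the 9, against 25.7% of all windows. The 5 windows belonged to Prkca, Prkcd and Prkcz only, with each of the 3 Prkcz windows counted. Windows of 1 gene are not independent, and the share by gene was not computed. The cyclic AMP response element TGACGTCA was found in 1 of the 9 windows and in 1.79% of all windows. The phorbol ester response element TGACTCA, named for the plant compounds that activate protein kinase C, was found in none of the 9 windows and in 5.2% of all windows. The search covered 9 motifs. Of those not marked below, the GC box (GGGCGG) was found in 7 of the 9 windows, against 35.7% of all windows. The TATA box, CCAAT box and E box were each found in 1 of the 9, against 13.6%, 37.4% and 7.15%. Part of a neuron-restrictive silencer element was found in none, against 0.371%. Windows of Prkca and Prkcz are shown because they held the most matches to the motifs marked. Capitals mark matches to the A form, the G form and the cyclic AMP and phorbol ester elements, read 5′ to 3′ on the gene's strand.
Prkca, chr11:108343839-108344138, minus strand: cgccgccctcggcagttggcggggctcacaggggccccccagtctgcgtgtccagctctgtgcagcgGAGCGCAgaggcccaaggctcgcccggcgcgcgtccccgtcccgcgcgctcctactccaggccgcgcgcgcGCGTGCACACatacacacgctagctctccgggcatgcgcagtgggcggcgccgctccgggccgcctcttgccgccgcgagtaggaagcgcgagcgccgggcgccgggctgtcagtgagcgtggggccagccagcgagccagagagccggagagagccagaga
Prkcz, outer start, chr4:155361379-155361678, minus strand: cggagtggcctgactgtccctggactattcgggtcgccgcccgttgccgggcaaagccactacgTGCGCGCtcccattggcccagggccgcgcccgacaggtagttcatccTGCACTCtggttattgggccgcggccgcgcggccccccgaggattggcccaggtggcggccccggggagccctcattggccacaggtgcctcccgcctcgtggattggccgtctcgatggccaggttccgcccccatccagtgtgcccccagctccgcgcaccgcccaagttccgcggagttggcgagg
Prkcz, internal start, chr4:155345740-155346039, minus strand: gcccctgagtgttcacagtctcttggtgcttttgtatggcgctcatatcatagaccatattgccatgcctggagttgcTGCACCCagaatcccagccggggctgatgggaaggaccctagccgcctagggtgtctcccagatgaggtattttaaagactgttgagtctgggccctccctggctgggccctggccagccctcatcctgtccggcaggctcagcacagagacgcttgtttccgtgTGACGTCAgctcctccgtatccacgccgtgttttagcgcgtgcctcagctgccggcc
The Prkca window held a G-form core 183 bases before the start and a pair of A-form cores on opposite strands that overlap to form 1 run, at 112 and 109 bases before it. The outer Prkcz window held a G-form core 186 bases and an A-form core 139 bases before the start. The internal Prkcz window held an A-form core 172 bases before the start and the cyclic AMP element across it, beginning 7 bases before. A match is a stretch of letters and not a measured site, the arrays measured no promoter, and the Prkcz probe sets were not assigned to one start or another.

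The first question was whether lead changed the level of the kinase genes. None of the 8 passed an adjusted p of 0.05 in limma (adjusted p = 1 for each), and none had an unadjusted p under 0.05. Over all genes tested, 0.119% passed (0.0824% higher and 0.0366% lower with lead), and 1.53% had an unadjusted p under 0.05. The median lead coefficient was 0.03 over the 8 genes and 0.02 over all genes tested. No member had its 3 lead pools all above or all below its 3 saline pools, an arrangement that 3.86% (above) and 1.41% (below) of genes tested showed. In whole brain, fewer cells of a type and less RNA per cell cannot be told apart, for these and all later values.

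**Figure D1:**
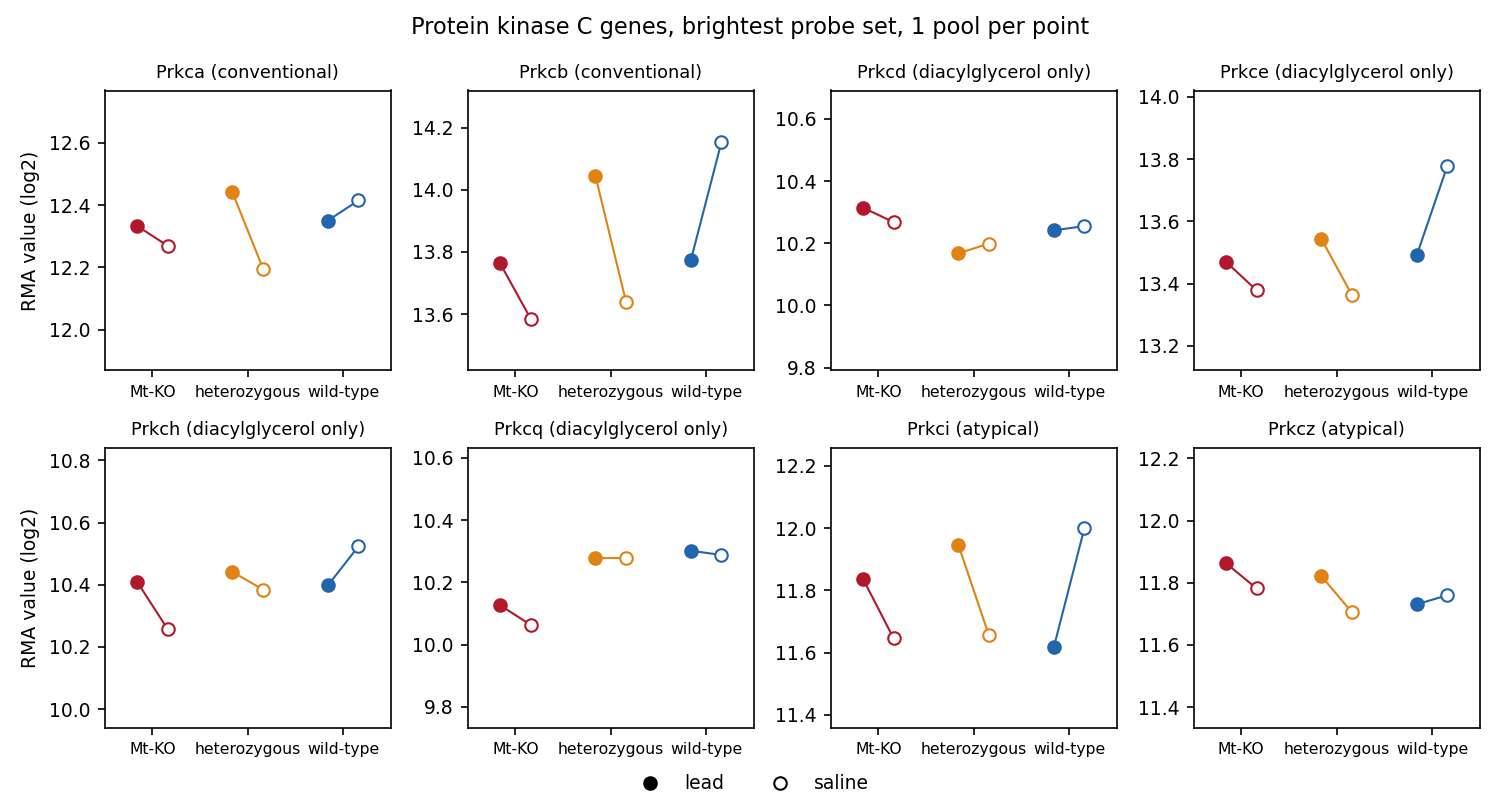
RMA value (log2) of the brightest probe set of each of the 8 protein kinase C genes in the 6 pools, with filled circles for lead and open circles for saline, 1 pool per point. Every panel spans the same range, so slopes can be compared. Prkcb, Prkce and Prkci are lower with lead in the wild-type pair and higher with lead in the other pairs, and Prkcd and Prkcq are almost level within each pair.

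Prkca encodes PKC alpha, a conventional isoform found in many cell types and abundant in neurons. Its brightest probe set had RMA values of 12.33, 12.44 and 12.35 in the lead pools of Mt-KO, heterozygous and wild-type pups, and 12.27, 12.20 and 12.42 in the saline pools. The groups overlapped, with the lowest and the second highest values both in saline pools. The lead coefficient was 0.08 (SE 0.17), with a 95% interval from -0.26 to 0.42, which is 0.836-fold to 1.34-fold.

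Prkcb encodes PKC beta, a conventional isoform strongly expressed in forebrain neurons. Its RMA values were 13.76, 14.04 and 13.77 in the lead pools of Mt-KO, heterozygous and wild-type pups, and 13.59, 13.64 and 14.15 in the saline pools. The highest value lay in the wild-type saline pool and the lowest in the Mt-KO saline pool, so the lead pools lay within the span of the saline pools. The lead coefficient was 0.07 (SE 0.27), with an interval from -0.46 to 0.60. Among the 8 genes Prkcb left the largest residual SD in this fit (0.285, against a median of 0.105 over the members and 0.150 over all genes tested). Lead minus saline was 0.18 (Mt-KO), 0.40 (heterozygous) and -0.38 (wild-type) within the pairs.

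The 4 isoforms that need diacylglycerol only left residual SDs of 0.024 (Prkcq), 0.029 (Prkcd), 0.0997 (Prkch) and 0.175 (Prkce). Prkce encodes PKC epsilon, which acts in transmitter release and neurite growth. It had RMA values of 13.47, 13.54 and 13.49 in the lead pools of Mt-KO, heterozygous and wild-type pups, and 13.38, 13.36 and 13.78 in the saline pools. The lead pools lay close together, between the wild-type saline pool and the other saline pools. Its lead coefficient was -0.01 (SE 0.24).

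Prkcd encodes PKC delta, known for roles in stress signalling and cell death. Its RMA values were 10.31, 10.17 and 10.24 in the lead pools of Mt-KO, heterozygous and wild-type pups, and 10.27, 10.20 and 10.26 in the saline pools. The whole range over the 6 pools was thus narrow, and the groups overlapped. With lead the coefficient was 0.00 (SE 0.12), with an interval of 0.847-fold to 1.18-fold.

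Prkcq encodes PKC theta, best known from the T cell receptor pathway. It had RMA values of 10.13, 10.28 and 10.30 in the lead pools of Mt-KO, heterozygous and wild-type pups, and 10.06, 10.28 and 10.29 in the saline pools. By RMA both Mt-KO pools were lower than the other 4, and the share of all genes with that arrangement was not counted. By GC-RMA Prkcq had values of 6.38 and 6.40 in the Mt-KO pools, against 6.42 in the wild-type saline pool. Its lead coefficient was 0.03 (SE 0.12). Of 7 T cell markers 2 entered the test, and none of these passed for lead (list median -0.11).

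Prkch encodes PKC eta, best known from epithelia. Its RMA values were 10.41, 10.44 and 10.40 in the lead pools of Mt-KO, heterozygous and wild-type pups, and 10.26, 10.38 and 10.52 in the saline pools. The lead pools again lay within the span of the saline pools. Its lead coefficient was 0.03 (SE 0.13).

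The atypical isoforms act with the polarity proteins Par3 and Par6. Prkci, the gene of PKC iota, had RMA values of 11.84, 11.95 and 11.62 in the lead pools of Mt-KO, heterozygous and wild-type pups, and 11.65, 11.66 and 11.999 in the saline pools. The wild-type pair held both the lowest and the highest value of the gene. The lead coefficient was 0.03 (SE 0.15), and the differences in the single pairs were 0.19 (Mt-KO), 0.29 (heterozygous) and -0.38 (wild-type).

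Prkcz encodes PKC zeta and, from an internal start, the brain-specific PKM zeta studied in memory. It had RMA values of 11.86, 11.82 and 11.73 in the lead pools of Mt-KO, heterozygous and wild-type pups, and 11.78, 11.70 and 11.76 in the saline pools. The groups overlapped, with the lowest value in the heterozygous saline pool. The lead coefficient was 0.06 (SE 0.15).

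The lead calls depended on the wild-type pair in 1 case. With the wild-type pair left out, Prkci was 0.24 higher with lead (log2, limma adjusted p = 0.0164), and the other 7 genes did not pass. Leaving out the wild-type lead array alone or the wild-type saline array alone removes the same comparison, and gave adjusted p-values of 0.0167 and 0.0163. In the fit without the pair 2632 of the 10916 genes tested passed, 2461 of them higher with lead.

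**Figure D2:**
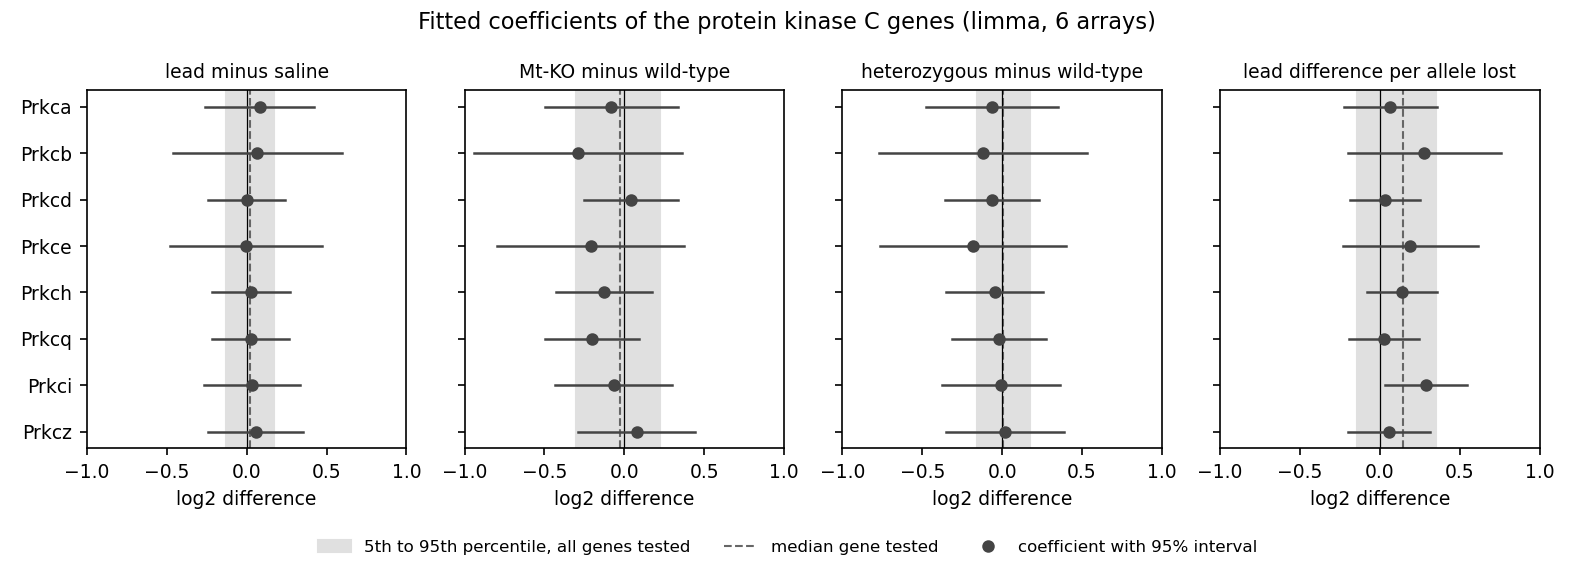
Coefficients of the 8 genes (points) with 95% intervals (bars) on the log2 scale for lead minus saline, Mt-KO minus wild-type, heterozygous minus wild-type, and the change of the lead difference for each metallothionein allele lost. The dashed line is the median gene tested and the grey band the 5th to 95th percentile of all genes tested. In the interaction panel the interval of Prkci excludes 0, although its adjusted p of 0.196 does not pass.

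The loss of metallothioneins was the second comparison. None of the 8 genes passed for Mt-KO minus wild-type or for heterozygous minus wild-type in limma (adjusted p = 1 for each), and none had an unadjusted p under 0.05. Over all genes tested, 0.431% passed for Mt-KO (0.311% higher and 0.119% lower) and 0.119% for the heterozygote (0.0733% higher and 0.0458% lower), and 3.5% and 1.2% had an unadjusted p under 0.05. The Mt-KO coefficients of the members ran from -0.29 (Prkcb, SE 0.33) to 0.08 (Prkcz, SE 0.19), with a median of -0.10 against -0.03 for all genes tested. After quantile normalization the Mt-KO coefficient of Prkcb was -0.02 and that of Prkce was 0.02 (against -0.21 as deposited), while that of Prkcq was -0.22 (against -0.20). The heterozygous coefficients ran from -0.18 (Prkce) to 0.02 (Prkcz), with a median of -0.06 against 0.00.

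Both Mt-KO pools lay below both wild-type pools for 4 members (Prkca, Prkcb, Prkce and Prkcq) and above them for 2 (Prkcd and Prkcz). Over all genes tested, 17.6% lay below and 11.4% above in this way. The nearest Mt-KO and wild-type values were 12.33 and 12.35 for Prkca, 13.76 and 13.77 for Prkcb, and 13.47 and 13.49 for Prkce. They were 10.27 and 10.26 for Prkcd, 11.78 and 11.76 for Prkcz, and 10.13 and 10.29 for Prkcq. By GC-RMA the arrangement held for Prkca, Prkce, Prkcq and Prkcz. It was lost for Prkcb, and Prkcd had the opposite one (Mt-KO 8.11 and 7.89, wild-type 8.24 and 8.19). Both heterozygous pools lay below both wild-type pools for Prkcd and Prkcq, an arrangement of 6.55% of genes, and above them for no member, against 6.83%. The nearest heterozygous and wild-type values were 10.20 and 10.24 for Prkcd, and 10.28 and 10.29 for Prkcq. By GC-RMA this order held for Prkcd and was lost for Prkcq (heterozygous 6.51 and 6.78, wild-type 6.65 and 6.42). Prkcb in Mt-KO differed from wild-type by -0.01 among lead pools and by -0.57 among saline pools. For Prkcq the same differences were -0.18 and -0.22. The median gene differed by 0.10 among lead pools and by -0.15 among saline pools. Relative to it the differences were -0.27 and -0.07 for Prkcq, and -0.11 and -0.42 for Prkcb. The part of the wild-type saline pool in these values was not tested.

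The genotype calls moved with the wild-type arrays. Without the wild-type lead array, which leaves wild-type saline as the only wild-type array, 4 members passed for Mt-KO in limma: Prkcb (-0.62, adjusted p = 0.0105), Prkce (-0.42, adjusted p = 0.03), Prkch (-0.24, adjusted p = 0.0441) and Prkci (-0.38, adjusted p = 0.00269). In that fit 4380 of all genes passed, 414 of them higher in Mt-KO. Without the wild-type saline array Prkci passed in the other direction, at 0.24 (limma adjusted p = 0.0478), with 2429 of all genes, 2203 of them higher in Mt-KO. For the heterozygote Prkci likewise passed at -0.32 without wild-type lead (limma adjusted p = 0.0171) and at 0.30 without wild-type saline (limma adjusted p = 0.0162). In these fits 2421 genes (271 higher) and 2627 genes (2534 higher) passed for the heterozygote, so Prkci went the way of most genes called. The lone wild-type array is assumed to vary like the others in these fits.

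The third comparison asked whether the lead difference depended on the number of metallothionein alleles. The interaction coefficient is the change of the lead minus saline difference for each allele lost, taken as linear. It was positive for all 8 members, from 0.02 (Prkcq) to 0.29 (Prkci), but it was also positive for the median gene tested, at 0.15, and 3 members (Prkcb, Prkce and Prkci) lay above that median. None passed in limma, whereas 3.77% of genes tested did. Prkci had the smallest unadjusted p, 0.0291, with an adjusted p of 0.196, and 20.1% of genes tested had an unadjusted p under 0.05. Without the Mt-KO lead array Prkci passed (coefficient 0.51, limma adjusted p = 0.0495), together with 1029 genes in all. It was 0.07 without the wild-type lead array and 0.12 without the wild-type saline array (limma adjusted p = 1 for each). Quantile normalization gave 0.13 (limma adjusted p = 0.393), and the mean over both Prkci probe sets gave 0.10 (limma adjusted p = 0.643).

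The wild-type pair went against the other pairs for most members. As deposited, 6 members (Prkca, Prkcb, Prkce, Prkch, Prkci and Prkcz) were lower with lead in the wild-type pair and higher with lead in both other pairs. So were 60.7% of all genes tested. As deposited, no member was higher, and none lower, with lead throughout the pairs, against 8.55% (higher) and 3.89% (lower) of genes tested. The median gene itself differed by 0.09 (Mt-KO), 0.15 (heterozygous) and -0.18 (wild-type). Relative to the median gene of each pair, Prkcb and Prkci kept that arrangement, as did 23.1% of genes, and Prkcd, Prkcq and Prkcz had the opposite one, as did 23.7%. With that shift taken off, no member kept 1 direction in the 3 pairs, against 11.5% (higher) and 10.9% (lower) of genes tested.

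**Figure D3:**
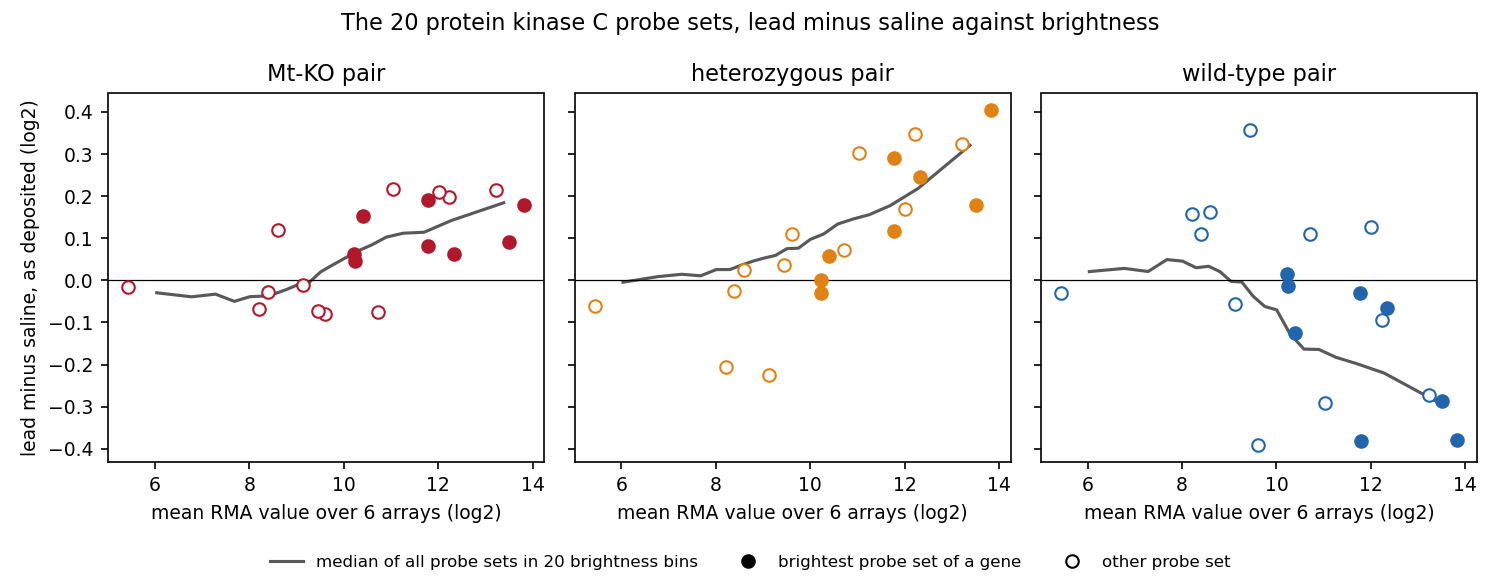
Lead minus saline difference (log2, as deposited) against mean RMA value for the 20 protein kinase C probe sets in the 3 pairs. Filled circles are the brightest probe set of each gene, open circles the other 12, and the line is the median of all probe sets with 1 symbol in 20 bins of brightness. The probe sets rise with brightness in the Mt-KO and heterozygous pairs and fall in the wild-type pair, as the line does.

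The pair differences of the kinase probe sets moved with their brightness. Across the 20 probe sets the Pearson correlation of mean RMA value with the lead minus saline difference was 0.63 (Mt-KO pair), 0.79 (heterozygous pair) and -0.50 (wild-type pair). Across the 10916 genes tested it was 0.31, 0.44 and -0.26. Those genes had 1 probe set each and had passed the brightness filter, whereas the 20 probe sets were not filtered. The sizes of the correlations therefore cannot be set against each other. These are correlations across probe sets that share the same arrays, and probe sets of 1 gene are not independent. Of the 9 probe sets with a mean RMA value of at least 11, 8 lay above the median gene in the heterozygous pair, and of the 11 dimmer ones none did. In the wild-type pair 10 of the 11 dimmer probe sets and 4 of the 9 brighter ones lay above it. The median of all probe sets with 1 symbol moved likewise between the brightness bins at mean RMA values of 9.27 and 13.39. It went from 0.06 to 0.32 in the heterozygous pair, where the median gene was 0.15. In the wild-type pair it went from -0.004 to -0.29, where the median gene was -0.18. The share of all probe sets on each side was not counted.

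Quantile normalization, which gives the 6 arrays a common distribution, was added to the pair differences after the data had been seen. It brought the correlations over the 20 probe sets to 0.03, 0.40 and 0.00, and those over all genes to 0.04, -0.01 and 0.05. The Prkcb differences became -0.01 (Mt-KO), 0.06 (heterozygous) and -0.05 (wild-type), and those of Prkce became -0.10, -0.12 and 0.03. For Prkci they became 0.07, 0.11 and -0.18, smaller than as deposited but with the same signs. The part of the wider spread of the wild-type saline array in these differences was not tested beyond this normalization.

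Other probe sets of the same genes gave a check on the brightest ones. The other 12 probe sets, fitted in the same way, had lead coefficients from -0.12 to 0.17, and none passed for lead, genotype or interaction (smallest limma adjusted p for the interaction 0.206). The second Prkci probe set differed by -0.07, 0.07 and 0.11 in the Mt-KO, heterozygous and wild-type pairs, so it was not lower with lead in the wild-type pair. The second Prkcz probe set differed by 0.22, 0.30 and -0.29, with the signs of the brightest one. The third Prkcz probe set, at -0.01, -0.22 and -0.06, was lower with lead in every pair. For Prkcb the second probe set (0.20, 0.35 and -0.09) had the signs of the brightest one. The third Prkcb probe set (0.12, 0.02 and 0.16) was higher with lead in the wild-type pair too. The second Prkce probe set, at 0.21, 0.32 and -0.27, had the same signs as the brightest one, whereas another bright one differed by 0.21, 0.17 and 0.13 and so was higher with lead in the wild-type pair too. Of the 20 probe sets, 7 had a mean GC-RMA value under 4, where the median of all probe sets lay between 3.33 and 3.60. None of these 7 was the brightest of its gene, and the second Prkci and the third Prkcb and Prkcz probe sets were among them.

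The 3 summaries of the arrays were also compared for the member with the widest scatter. The PLIER intensity of Prkcb was 9144, 10964 and 8969 in the lead pools of Mt-KO, heterozygous and wild-type pups, and 7524, 8194 and 13100 in the saline pools. Its GC-RMA values were 14.01, 14.16 and 14.01 in the lead pools, and 13.96, 14.01 and 14.31 in the saline pools. In each summary the wild-type saline pool was the highest and the Mt-KO saline pool the lowest. For 4 members (Prkcb, Prkce, Prkch and Prkci) the wild-type saline pool was the highest of the 6 by RMA, as it was for 41.6% of genes tested.

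Genes with a like pattern were sought for the member of each class with the widest range after centring every array on its median. Prkcb ranged over 0.44 (log2) after centring, and Cfl1, Rab14 and Wasf1 followed it most closely over the 6 pools, with Pearson correlations of 0.998, 0.997 and 0.997. Over the same 6 pools 847 genes correlated with Prkcb above 0.9. Prkcq ranged over 0.32, with Fxyd7, Wdtc1 and Pgpep1 nearest (0.991 each) and 152 genes above 0.9. Prkci ranged over 0.22, with Nlk (0.993), Cdh10 (0.992) and Rpl8 (0.991) nearest and 281 genes above 0.9. These are descriptions over 6 points chosen as the highest of 10916, and carry no test. Among the members themselves Prkch and Prkcq had the highest correlation (0.87) and Prkcd and Prkci the lowest (-0.85).

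The genes around the kinases were described by lists, each given as its count and its median beside that of all genes tested. Lists for the lipid signal, for priming and anchoring, for substrates, for relatives of the family and for calcium signalling held 94 genes, and 69 of them entered the test. None of the 69 passed for lead, for Mt-KO or for the heterozygote. For the interaction 1 passed as higher (Akap5) and 1 as lower (Plcb2), against 3.34% and 0.431% of all genes tested.

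**Figure D4:**
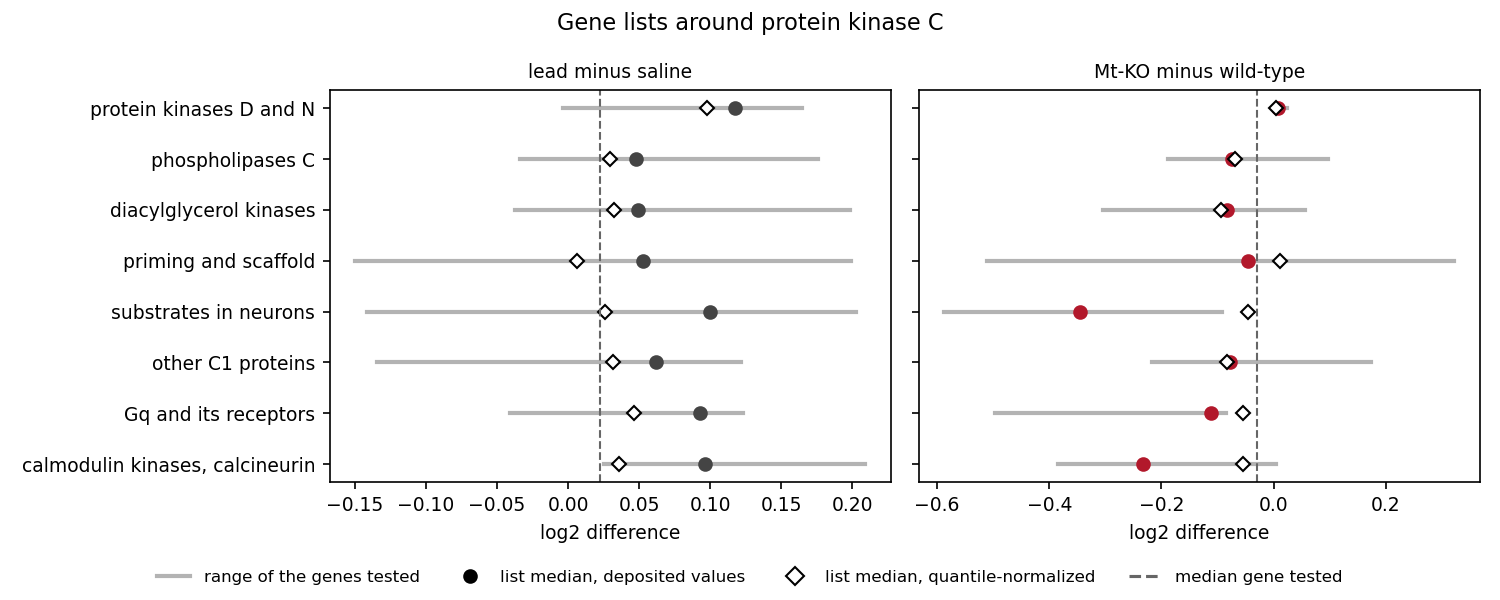
Gene lists around protein kinase C, with the range of the genes tested (grey bar) and the list median from the deposited RMA values (filled circle) and after quantile normalization (open diamond), for lead minus saline and for Mt-KO minus wild-type on the log2 scale. The dashed line is the median gene tested in the deposited values. The substrate list has a Mt-KO median of -0.35 in the deposited values and -0.05 after quantile normalization.

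The lipid signal comes first in the pathway. All 12 phospholipase C genes, whose enzymes release diacylglycerol, were tested, with a median lead coefficient of 0.05 against 0.02 for all genes. Plce1, the largest by t among them, had RMA values of 10.24, 10.27 and 10.17 in the lead pools of Mt-KO, heterozygous and wild-type pups, and 9.90, 10.03 and 10.23 in the saline pools. Its groups overlapped, and its lead coefficient was 0.18 (SE 0.12, limma adjusted p = 1). Of 9 diacylglycerol kinase genes, whose enzymes remove the lipid, 6 were tested, with a median of 0.05. Dgkz, which acts at synapses, had a lead coefficient of 0.20 (SE 0.23). The Gq proteins and the receptors that drive phospholipase C had 5 of 13 genes tested and a median of 0.09, with 0.12 for both Gnaq and Gna11.

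Priming and anchoring proteins decide where and whether the kinases can act. Of 18 such genes 14 were tested, with a median lead coefficient of 0.05. Cdc37, a co-chaperone of protein kinases, had RMA values of 12.33, 12.23 and 12.08 in the lead pools of Mt-KO, heterozygous and wild-type pups, and 12.09, 11.99 and 11.96 in the saline pools. Each lead pool was above the saline pool of its genotype, and the groups overlapped. Its lead coefficient of 0.20 (SE 0.16) did not pass in limma (adjusted p = 1). Phlpp2, a phosphatase that removes a priming phosphate, had a coefficient of -0.15 (SE 0.13), and Pard3, the Par3 partner of the atypical isoforms, -0.12 (SE 0.12).

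Akap5 encodes AKAP150, an anchoring protein that holds protein kinase C, protein kinase A and calcineurin at synapses. It had RMA values of 11.55, 11.20 and 10.95 in the lead pools of Mt-KO, heterozygous and wild-type pups, and 10.56, 11.50 and 11.31 in the saline pools. Only the Mt-KO pair was higher with lead. The interaction coefficient was 0.68 (SE 0.12, limma adjusted p = 1.24e-05). It passed no longer without the Mt-KO saline array (0.12, limma adjusted p = 0.776). The other 2 Akap5 probe sets differed by -0.29 and 0.09 in the Mt-KO pair relative to the median gene, where the brightest differed by 0.90.

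Plcb2 encodes a phospholipase C that is best known from blood and taste cells. It had RMA values of 9.28, 9.53 and 9.82 in the lead pools of Mt-KO, heterozygous and wild-type pups, and 9.52, 9.74 and 9.13 in the saline pools. The wild-type pair was higher with lead and both other pairs lower. The interaction coefficient was -0.47 (SE 0.10, limma adjusted p = 0.00151), and without the wild-type saline array it was -0.05 (limma adjusted p = 1). Only 1 probe set measured the gene.

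Substrates of the kinases in neurons include the membrane and growth cone proteins MARCKS, GAP-43 and BASP1 and the calmodulin-binding neurogranin. Of 14 such genes 12 were tested, and none passed. Their median lead coefficient was 0.10, and their median Mt-KO coefficient was -0.35 against -0.03 for all genes, with 0 of the 12 above the median gene. Basp1 had RMA values of 14.73, 15.29 and 14.996 in the lead pools of Mt-KO, heterozygous and wild-type pups, and 14.50, 14.73 and 15.41 in the saline pools. Both Mt-KO pools lay below both wild-type pools, and its Mt-KO coefficient was -0.59 (SE 0.50, limma adjusted p = 1). Gap43 (-0.54), Nrgn (-0.50), Marcksl1 (-0.47) and Marcks (-0.43) had similar coefficients. After quantile normalization the median of the 12 was -0.05, and 5 of them lay above the median gene. The genes named here did not move alike. Gap43 was then at -0.28, Nrgn at -0.26, Marcks at -0.14, Basp1 at -0.08 and Marcksl1 at 0.02.

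Relatives of the family and the other calcium sensors completed the lists. Of 6 genes of protein kinases D and N 3 were tested, with Pkn2 at 0.16 (SE 0.12) for lead. Of 9 other genes whose proteins bind diacylglycerol or phorbol esters through a C1 domain 8 were tested, with a median of 0.06 and with Unc13b, a synaptic vesicle priming factor, at -0.13 (SE 0.13). Of 13 genes for calmodulin kinases, calcineurin and calmodulin 9 were tested. All 9 lay above the median gene for lead, with a list median of 0.10, of 0.04 after quantile normalization, and no gene passed. Camk2d had RMA values of 11.94, 12.02 and 11.67 in the lead pools of Mt-KO, heterozygous and wild-type pups, and 11.51, 11.72 and 11.76 in the saline pools. The groups overlapped, and its lead coefficient was 0.21 (SE 0.15, limma adjusted p = 1).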

How the data were processed

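Whole-brain RNA pools were read on Affymetrix mouse expression arrays. The 18 deposited columns hold 6 arrays in 3 summaries, which are not replicates of each other. The submitters' processing notes name Partek, RMA, GCRMA and PLIER; their versions are not given in the sources used here. RMA and GC-RMA values were deposited as log2 values, and the deposited PLIER values are linear intensities, used as log2(value + 16). The labelling kit in the labels is one for whole-transcript arrays, but the probe set names are of a 3′ array.

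Of 45101 probe sets 34958 had 1 gene symbol in the platform annotation, 932 had several and 9211 none; only the first were used. For the upper 60% of genes by mean RMA value, limma 3.58.1 (R 4.3.3; lmFit and eBayes with a trend in brightness, two-sided, threshold 0.05 after Benjamini-Hochberg adjustment over all 10916 genes tested) fitted genotype plus treatment, and treatment by alleles lost. With 2 residual degrees of freedom, limma's prior was infinite: a gene's error is the typical one at its brightness, not its own. The number of arrays limits the precision.

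Named were all members, up to 3 genes per list by absolute t for lead, and any that passed. The 3 genes most like the widest-ranging member of each class were also named. Substrates named for Mt-KO, and the other probe sets named, were chosen after their values were seen. The members and lists were chosen with earlier results of these data known. Alternatives covered the summary, normalization, brightness filter, probe set, variance model, threshold, genotype term and leaving out arrays. An item of the set is not reported here.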

Additional observations from a re-analysis of the deposited data

Results flagged for a closer look

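The lead difference differed between genotypes for 2 genes of the lists, by the interaction of treatment with alleles lost in limma. Akap5, the synaptic anchor of protein kinase C, had an interaction coefficient of 0.68 (adjusted p = 1.24e-05), with lead minus saline differences relative to the median gene of 0.90 (Mt-KO), -0.45 (heterozygous) and -0.18 (wild-type). Over 16 alternative settings its coefficient ran from 0.12 to 1.24 and passed in 12. It did not pass with GC-RMA values (0.78, adjusted p = 0.393), after quantile normalization (0.55, adjusted p = 0.266) or after centring each array (0.54, adjusted p = 0.0981). Without the Mt-KO saline array it was 0.12 (adjusted p = 0.776). Plcb2, a phospholipase C gene, had a coefficient of -0.47 (adjusted p = 0.00151), with differences of -0.34, -0.36 and 0.88 in the same order. Over 15 alternatives it ran from -0.89 to -0.05 and passed in 6. The Mt-KO pools differ in Xist and Eif2s3y levels. The wild-type saline array stands apart in its Gapdh 3′ to 5′ difference, and its spread is the widest by a small margin. The part of either in these values was not tested beyond leaving out arrays.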

How the results depend on the processing

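No member passed for lead, Mt-KO, the heterozygote or the interaction under GC-RMA, PLIER with either pseudocount, quantile normalization, array centring, no filter on brightness, a filter at the upper 40%, averaged probe sets, eBayes without trend or a threshold of 0.10, nor for lead without the genotype term or with a linear allele term. When single arrays or pairs were left out, the number passing ranged from 0 to 1 for lead, from 0 to 4 for Mt-KO, from 0 to 1 for the heterozygote and from 0 to 1 for the interaction. Prkci was -0.38 for Mt-KO and -0.32 for the heterozygote without the wild-type lead array, and turned to 0.24 and 0.30 without the wild-type saline array. The cause was not tested. Of 165 recomputed lead coefficients of the members 32 changed sign, as did 14 of 125 for Mt-KO, 18 of 125 for the heterozygote and 20 of 125 for the interaction. These counts do not measure stability, because many of the recomputed coefficients could not differ. A change of filter, variance model or threshold, or of the genotype term for lead, leaves the coefficient as it was. Leaving out a pair or either of its arrays gives the same lead coefficient, which is counted more than once. Leaving out arrays aside, lead coefficients stayed between -0.09 and 0.12. The lead fit compares lead with saline within genotypes. No paired analysis by replicate number was possible because the labels give none. Brightness limits the other probe sets, 7 of which were near the GC-RMA background.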

Other observations

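For some of the dimmer probe sets the 3 summaries gave different sizes. A Prkca probe set that was the dimmest of its gene by RMA had PLIER intensities of 1903, 866 and 1639 in the lead pools of Mt-KO, heterozygous and wild-type pups, and 2229, 1961 and 421 in the saline pools. Its RMA differences in the same pairs were -0.07, -0.21 and 0.16 (log2), and its GC-RMA values lay between 2.63 and 2.76. The middle Prkca probe set by RMA had GC-RMA values of 4.56 in the wild-type lead pool and 6.41 in the wild-type saline pool, whereas its RMA difference was -0.39. Neither was the probe set used for Prkca in the tests.

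Marker lists of other cell types had median lead coefficients from -0.11 (T cells, 2 genes) to 0.62 (pituitary, 2 genes). The median lead coefficient was 0.22 for 7 astrocyte markers, 0.22 for 6 microglia markers, 0.22 for 8 Purkinje cell markers and 0.14 for 6 oligodendrocyte markers, against 0.02 for all genes tested and 0.03 for the protein kinase C genes. Thalamus, forebrain neuron, endothelial and red blood cell markers had medians of 0.00, 0.04, -0.05 and 0.03. No gene of the astrocyte, microglia, Purkinje and oligodendrocyte lists passed for lead in limma. Vwf of the endothelial list (0.47, limma adjusted p = 0.0206) and Gh of the pituitary list (0.85, limma adjusted p = 6.61e-10) passed as higher. Vwf was named after its values were seen. Gh was not higher in every pair. Its RMA values were 9.29, 11.48 and 9.83 in the lead pools of Mt-KO, heterozygous and wild-type pups. In the saline pools they were 9.40, 9.32 and 9.32.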
